A study of Homo sapiens with 4 samples.

Results

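The WNT5A-ROR and planar cell polarity genes are 10 named genes of the noncanonical Wnt pathway: the ligand WNT5A, the receptors ROR1, ROR2 and FZD6, the core polarity genes VANGL1, VANGL2, PRICKLE1, CELSR1 and CELSR2, and the scaffold gene SCRIB. They were listed as known genes of this pathway, which is known to control the KIF26B protein. All 10 were found by symbol among the 58735 Ensembl genes of each file, and 6 of them reached a mean of 1 FPKM, the level from which genes were tested. FPKM is the number of sequenced fragments scaled to exon length and to library size, so that levels of different genes can be compared per length.

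KIF26B was silenced in HCT116, a cell line grown from a human colon carcinoma, and polyadenylated RNA was sequenced 48 h later. The control siRNA group holds 2 libraries of HCT116 cells given a control siRNA, and the KIF26B siRNA group holds 2 libraries of the same line given siRNA against KIF26B. All 4 libraries come from 1 established line without any other treatment named in the labels. The siRNA is the only difference between the groups that the labels give. The KIF26B siRNA libraries are numbered as replicates in their titles, but the names of their value columns carry different numbers after the letters KD. Whether they received the same siRNA is not stated in the labels, nor whether the replicates were separate cultures, so that every P below measures the spread between these libraries.

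WNT5A is a secreted ligand that binds ROR receptors and Frizzled proteins without stabilising β-catenin, and in many tissues it steers cell shape and directed movement. Planar cell polarity is the alignment of cells within the plane of a sheet. It rests on Frizzled proteins on one face of a cell, VANGL and PRICKLE proteins on the facing side of its neighbour, CELSR cadherins that bridge both membranes, and the Scribble scaffold at the lateral membrane. KIF26B is a kinesin-family protein, and WNT5A-ROR signalling is known to lower its amount through the proteasome, so that in this pathway it lies downstream of the receptors.

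The authors scaled the libraries by 18068934 to 24673739 fragments. KIF26B itself was listed at 0.110 and 0.205 FPKM in control siRNA replicates 1 and 2, and at 0.140 and 0.0307 FPKM in KIF26B siRNA replicates 1 and 2, on the basis of 31, 73, 43 and 8 reads. Thus the library with the label KIF26B siRNA replicate 1 lay between the controls, and only replicate 2 lay below both of them, at 19.5% of the control mean. Directions below compare the libraries by their labels. The KIF26B siRNA libraries also differed more from each other than the controls did: the median absolute difference over all genes tested was 0.28 on the log2(FPKM + 1) scale, against 0.07 between the controls. Mitochondrial genes held 6.50% and 6.51% of the reads in the controls, 9.14% in KIF26B siRNA replicate 1 and 7.34% in replicate 2. Of 8 colon epithelial markers, all but VIL1 and LGR5, which stayed below 0.5 FPKM, were present in every library, with a summed level of 1563 to 1696 FPKM. Among them KRT8 (485 and 482 FPKM in the controls, 369 and 350 FPKM after KIF26B siRNA), KRT18 (245 and 243 against 175 and 168 FPKM) and CDH1 (24.1 and 23.9 against 17.7 and 20.2 FPKM) were lower in both KIF26B siRNA libraries, and KRT19 (842 and 862 against 921 and 951 FPKM) was higher in both. The sum over 10 stromal markers was 7.79 and 8.04 FPKM in the controls and was 7.18 and 10.2 FPKM after KIF26B siRNA, nearly all of it from COL1A1 and from ACTA2, which was higher in both KIF26B siRNA libraries (0.633 and 0.599 against 2.25 and 1.34 FPKM), while DCN, LUM, PDGFRA and FAP were at or near 0. The sums of 4 leukocyte and 2 endothelial markers stayed below 0.5 FPKM in every library. The part of these markers in the results below was not tested.

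In control cells the members spanned a wide range of levels. SCRIB was highest at 32.7 ± 0.65 FPKM (mean ± SD, n = 2 here and below), followed by FZD6 at 14.0 ± 1.15, CELSR1 at 8.84 ± 0.494, CELSR2 at 7.55 ± 0.0425, VANGL1 at 6.85 ± 0.198 and ROR2 at 5.98 ± 0.551 FPKM. ROR1, VANGL2, PRICKLE1 and WNT5A lay below 1 FPKM. In the controls no member's range touched that of its neighbour in this order, although the 95% counting intervals overlapped between CELSR2 and VANGL1, VANGL1 and ROR2, ROR1 and VANGL2, and VANGL2 and PRICKLE1. By the mean of all 4 libraries, SCRIB stood above 91.8% of the genes tested, FZD6 above 73.7% and ROR2 above 49.9%, so that most of the tested members sat in the middle of the expressed genes. In KIF26B siRNA replicate 1, CELSR2 stood below VANGL1 and ROR2, at 5.05 FPKM against 7.45 and 5.73 FPKM. The order also changed in KIF26B siRNA replicate 2, where CELSR1 came second and ROR2, FZD6 and CELSR2 followed within 4.70 to 4.76 FPKM, each within the counting intervals of the others.

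**Figure D1:**
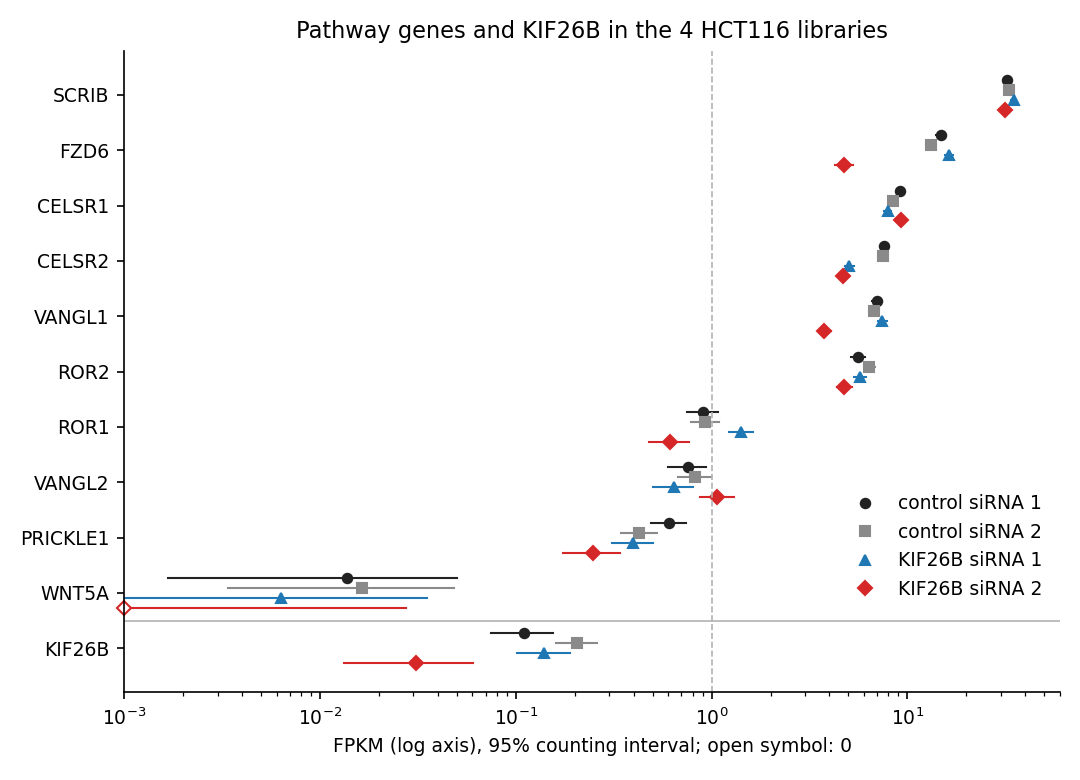
FPKM of the 10 pathway genes and KIF26B (log axis, with 95% Poisson counting intervals) in the 4 libraries, ordered by control mean; the dashed line marks 1 FPKM and an open symbol on the left edge marks a value of 0. CELSR2 is lower in both KIF26B siRNA libraries (5.05 and 4.70 FPKM) than in both controls (7.58 and 7.52 FPKM), whereas FZD6 and VANGL1 are low only in KIF26B siRNA replicate 2.

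The groups were compared with limma on log2(FPKM + 1), and adjusted p values are Benjamini-Hochberg values over all genes tested. In this comparison, 1 of the 6 members tested was lower in KIF26B siRNA at an unadjusted P below 0.05 (CELSR2), and 0 were higher. Over all 14523 genes tested, 8.68% were lower and 7.74% were higher at the same threshold. None of the members had an unadjusted P below 0.05 together with a log2 fold change beyond 1, against 1.42% of all genes. The study's methods set these 2 thresholds with DESeq2. Here they apply to log2(FPKM + 1), a scale that shrinks changes of low genes. An adjusted p below 0.05 was reached by 0 members and by 0 genes in all with limma, as with limma-voom on the recovered reads, and the smallest adjusted p among the members was 0.242. Both KIF26B siRNA libraries lay below both controls for 1 of the 6 members, CELSR2, against 27.8% of all genes, and above both controls for 0 of the 6, against 24.9%. The median log2 fold change of the 6 members was −0.24, beside −0.01 over all genes tested. By library the median of the members was 0.02 in KIF26B siRNA replicate 1 and −0.43 in replicate 2. With 2 libraries in each group, permuting the labels exactly and testing both directions gives no p below 0.333 for a gene. In bulk RNA, less transcript per cell and fewer cells with the transcript cannot be told apart.

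**Figure D2:**
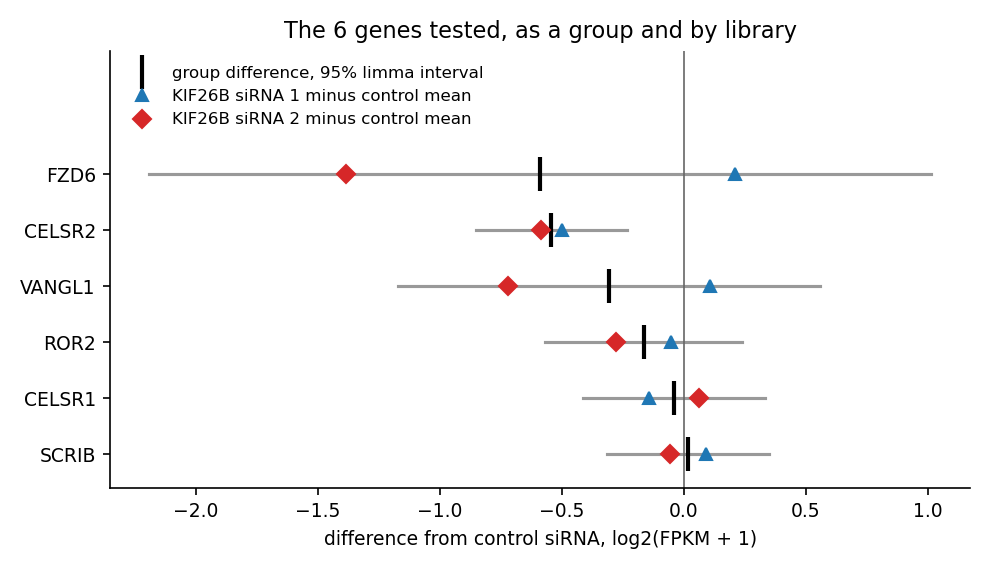
Difference from control siRNA on the log2(FPKM + 1) scale for the 6 genes tested: the black tick and grey line give the group difference with its 95% limma interval, and the symbols give each KIF26B siRNA library minus the control mean. The symbols of CELSR2 nearly coincide at −0.50 and −0.59, while those of FZD6 lie on opposite sides of 0, at 0.21 and −1.39.

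The ligand was nearly absent. WNT5A (ENSG00000114251, chr3:55465715-55505263 in GRCh38.p14) was listed at 0.0138 and 0.0164 FPKM in the controls and at 0.00633 and 0 FPKM in KIF26B siRNA replicates 1 and 2. These values rest on 2, 3, 1 and 0 recovered reads, and the recovery is less certain for a gene with a library at 0. The counting interval of the library without a read reaches 0.0276 FPKM and so covers both control values, and no difference was detectable at this depth. The rest of this group was low as well: of 9 ligands and secreted cofactors listed beside WNT5A, 3 were at 0 in every library and only WNT11 and CTHRC1 reached the level for testing. CTHRC1, a secreted protein that stabilises the complex of WNT5A with its receptors, was the highest of them at 3.99 and 3.04 FPKM in the controls and 4.38 and 3.90 FPKM in KIF26B siRNA (log2 fold change 0.19, adjusted p = 0.584).

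Of the ROR receptors, which are receptor tyrosine kinases for WNT5A, ROR2 was the main one in these cells. ROR2 (ENSG00000169071, chr9:91722601-91950228) was listed at 5.60 and 6.37 FPKM in the controls and at 5.73 and 4.76 FPKM in KIF26B siRNA, from 500 to 915 reads. KIF26B siRNA replicate 1 lay inside the control range and replicate 2 below it, so that the groups overlapped. The log2 fold change was −0.16 (95% interval −0.57 to 0.24, adjusted p = 0.608).

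ROR1 (ENSG00000185483, chr1:63774017-64181498) was listed at 0.903 and 0.929 FPKM in the controls and at 1.42 and 0.610 FPKM in KIF26B siRNA, from 119, 154, 203 and 74 reads. The KIF26B siRNA libraries lay on opposite sides of both controls, at 154% and 66.6% of the control mean. Their counting intervals, 1.23 to 1.62 FPKM and 0.479 to 0.766 FPKM, do not touch each other. The gene averaged 0.964 FPKM, just under the level for testing. Without that filter, over all genes above 0, its log2 fold change was 0.04 (95% interval −0.66 to 0.74, adjusted p = 0.971). ROR1 made up 13.9% and 12.7% of the summed ROR1 and ROR2 levels in the controls, 19.8% in KIF26B siRNA replicate 1 and 11.4% in replicate 2, so that ROR2 held at least 80.2% in every library.

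FZD6, a Frizzled receptor that acts mostly in planar polarity, showed the widest spread of all members. FZD6 (ENSG00000164930, chr8:103298494-103332866) was listed at 14.8 and 13.2 FPKM in the controls and at 16.3 and 4.74 FPKM in KIF26B siRNA, from 1183, 1324, 1417 and 348 reads. Replicate 1 lay above both controls, and replicate 2 lay at 33.8% of the control mean, with a counting interval of 4.25 to 5.26 FPKM that stayed far below the controls. The group difference was −0.59 on the log2(FPKM + 1) scale with a standard error of 0.58 (95% interval −2.19 to 1.01, adjusted p = 0.643). In replicate 2 alone, 1 of the 6 members was lower by more than 1 on the log2 scale, against 1.62% of all genes tested; in replicate 1 alone 0 members were, against 1.83%. Without KIF26B siRNA replicate 1, the difference was −1.39 (adjusted p = 0.0463), in a fit where the remaining KIF26B siRNA library is assumed to vary like the controls and where 2507 of 14523 genes, or 17.3%, had an adjusted p below 0.05. An antisense gene, BAALC-AS1, overlaps FZD6 exons and was listed at 0.657 to 0.809 FPKM in the 4 libraries.

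The other Frizzled genes listed had other profiles. Of those tested, FZD1, FZD2, FZD3, FZD4 and FZD5 were lower in both KIF26B siRNA libraries than in both controls, as 27.8% of all genes were, and FZD7 was not. FZD8, below the level for testing, was also lower in both. It was listed at 0.164 and 0.231 FPKM in the controls and at 0.0348 and 0.0275 FPKM in KIF26B siRNA, from 13, 23, 3 and 2 reads. The 9 Frizzled genes summed here were FZD1 to FZD8 and FZD10, without FZD9. Their summed level was 47.1 and 43.1 FPKM in the controls and 40.8 and 29.5 FPKM in KIF26B siRNA, so shares rest on unequal sums. FZD6 held 31.5% and 30.6% of the summed level of 9 Frizzled genes in the controls, 40.0% in KIF26B siRNA replicate 1 and 16.1% in replicate 2. FZD7 held 13.2% and 13.7% in the controls and 15.2% and 26.2% in KIF26B siRNA, and its own level was 6.23 and 5.89 FPKM in the controls and 6.21 and 7.72 FPKM in KIF26B siRNA. In replicate 2 FZD6 thus came after FZD2 and FZD7, whereas it was the most abundant of the 9 in the other libraries. The 3 pathway genes whose centred profiles over the 4 libraries came closest to that of FZD6, among 58 compared, were ROCK2, FJX1 and VANGL1, with root mean square differences of 0.26, 0.28 and 0.31 on the log2 scale. ROCK2, a kinase of the actin cytoskeleton, was listed at 14.2 and 13.5 FPKM in the controls and at 13.5 and 6.88 FPKM in KIF26B siRNA. FJX1, the human relative of the fly four-jointed kinase, was listed at 7.65 and 8.40 FPKM and at 9.53 and 4.31 FPKM.

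**Figure D3:**
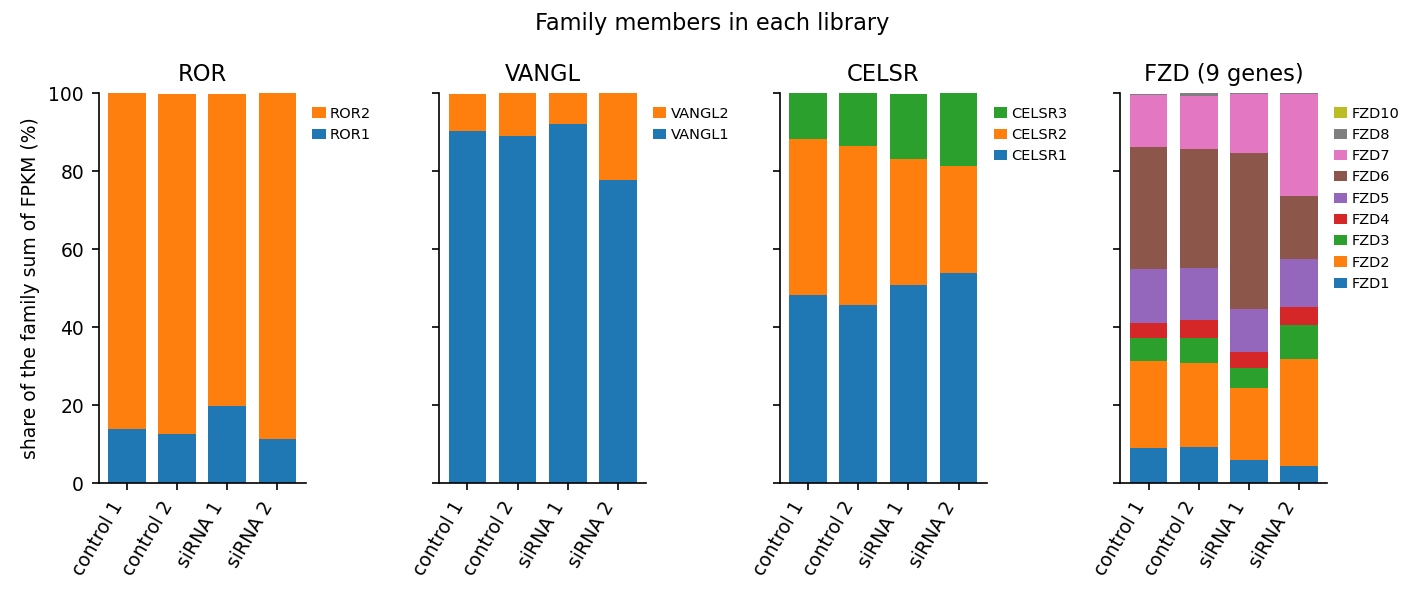
Share of each gene in the summed FPKM of the genes shown for its family, in percent, for the ROR, VANGL, CELSR and 9 FZD genes (without FZD9) in the 4 libraries (control 1 and 2: control siRNA, siRNA 1 and 2: KIF26B siRNA). The CELSR2 share is lower in both KIF26B siRNA libraries (32.4% and 27.4%) than in the controls (39.9% and 40.7%), and the FZD6 and VANGL1 shares are lowest in KIF26B siRNA replicate 2.

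VANGL1 and VANGL2 are paralogous membrane proteins of the core polarity complex, opposite Frizzled at cell contacts. VANGL1 (ENSG00000173218, chr1:115641970-115698221) was listed at 6.99 and 6.71 FPKM in the controls and at 7.45 and 3.77 FPKM in KIF26B siRNA, from 617 to 1501 reads. As with FZD6, replicate 1 was above both controls and replicate 2 below both, at 55.0% of the control mean with a counting interval of 3.48 to 4.08 FPKM. The group difference was −0.31 (standard error 0.31, adjusted p = 0.657). Without KIF26B siRNA replicate 1 it was −0.72 (adjusted p = 0.0463), under the same assumption as for FZD6.

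VANGL2 (ENSG00000162738, chr1:160400564-160428670) was much lower than its paralogue, at 0.754 and 0.820 FPKM in the controls and 0.640 and 1.07 FPKM in KIF26B siRNA. These values rest on 79, 108, 73 and 103 reads. Here replicate 1 was below both controls and replicate 2 above both, the reverse of VANGL1, but the counting interval of replicate 2, 0.871 to 1.29 FPKM, overlaps those of both controls. VANGL2 therefore took 9.73% and 10.9% of the summed VANGL level in the controls, 7.91% in KIF26B siRNA replicate 1 and 22.1% in replicate 2. Without the filter its log2 fold change was 0.04 (adjusted p = 0.947).

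PRICKLE1, a cytoplasmic partner of VANGL proteins, was a minor member. PRICKLE1 (ENSG00000139174, chr12:42456757-42589746) was listed at 0.605 and 0.428 FPKM in the controls and at 0.397 and 0.248 FPKM in KIF26B siRNA, from 98, 87, 70 and 37 reads. Its values after KIF26B siRNA were both below the control values, but replicate 1 and control replicate 2 were within each other's counting intervals. Without the filter its log2 fold change was −0.20 on the log2(FPKM + 1) scale (95% interval −0.52 to 0.13, adjusted p = 0.604). On the recovered reads, limma-voom over genes with at least 10 reads in 2 libraries, added after seeing the data, gave −0.66 (95% interval −1.58 to 0.27, adjusted p = 0.429). PPHLN1, listed at 5.45 to 6.64 FPKM, overlaps PRICKLE1 exons on the opposite strand, and whether the counting used strand is not given in the sources used here. PRICKLE3 held 92.3% to 97.6% of the summed level of the 4 PRICKLE genes, at 9.68 and 10.5 FPKM in the controls and 8.59 and 12.6 FPKM in KIF26B siRNA.

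CELSR1 and CELSR2 are large cadherins with a receptor-like membrane domain that bind each other across cell borders. CELSR2 (ENSG00000143126, chr1:109249539-109275751) was listed at 7.58 and 7.52 FPKM in the controls and at 5.05 and 4.70 FPKM in KIF26B siRNA, from 1838, 2292, 1332 and 1049 reads. The groups did not overlap, and the KIF26B siRNA libraries lay at 66.9% and 62.2% of the control mean. Among the 6 members tested, CELSR2 was thus the only one lower in both KIF26B siRNA libraries than in both controls, including replicate 1, in which KIF26B was not below both controls. The log2 fold change was −0.54 (standard error 0.11, 95% interval −0.85 to −0.23, adjusted p = 0.242), which passed the unadjusted threshold but neither the fold threshold nor the adjustment over all genes. The unadjusted P lay between 0.00283 and 0.03 under the 11 settings, the reported one included, that kept 2 libraries per group. Without control replicate 1 or control replicate 2 the log2 fold change was −0.54 and −0.55, and it no longer passed the unadjusted threshold (adjusted p = 0.999 and adjusted p = 1.0). Without KIF26B siRNA replicate 1 it was −0.59 (adjusted p = 0.0463, as for FZD6 and VANGL1), and without KIF26B siRNA replicate 2 it was −0.50 (adjusted p = 0.0622), and both passed the unadjusted threshold.

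CELSR1 (ENSG00000075275, chr22:46361174-46537620) was listed at 9.19 and 8.49 FPKM in the controls and at 7.92 and 9.26 FPKM in KIF26B siRNA, from 2143 to 2683 reads. The KIF26B siRNA libraries lay on either side of the controls, and the log2 fold change was −0.04 (95% interval −0.41 to 0.33, adjusted p = 0.898). CELSR3, the remaining paralogue, was listed at 2.21 and 2.49 FPKM in the controls and at 2.61 and 3.18 FPKM in KIF26B siRNA (adjusted p = 0.487). The summed level of the 3 paralogues was 19.0 and 18.5 FPKM in the controls and 15.6 and 17.1 FPKM in KIF26B siRNA. Within that sum CELSR2 took 39.9% and 40.7% in the controls and 32.4% and 27.4% in KIF26B siRNA, and CELSR3 took 11.6% and 13.5% against 16.7% and 18.6%. The CELSR2 share was thus smaller, and the CELSR3 share larger, in both KIF26B siRNA libraries than in both controls.

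RefSeq promoter windows were given for 7 of the 10 members, not for CELSR1, FZD6 and SCRIB. The 250 bases before the start site are shown 5′ to 3′ for CELSR2, the tested member lower in both KIF26B siRNA libraries, for the first of the start sites of VANGL1, lower in replicate 2 alone, and for ROR2, whose groups overlapped. They lie at chr1:109249289-109249538 on the plus strand, chr1:115641720-115641969 on the plus strand and chr9:91950229-91950478 on the minus strand of GRCh38.p14. Capitals mark matches on either strand to GGGCGG (the GC box bound by SP factors) or GGAATG (the TEAD motif).
CELSR2: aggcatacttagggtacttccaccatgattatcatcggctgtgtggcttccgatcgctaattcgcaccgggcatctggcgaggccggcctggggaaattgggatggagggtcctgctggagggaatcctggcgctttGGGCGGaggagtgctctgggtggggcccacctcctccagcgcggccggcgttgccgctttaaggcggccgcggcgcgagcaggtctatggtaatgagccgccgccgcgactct
VANGL1: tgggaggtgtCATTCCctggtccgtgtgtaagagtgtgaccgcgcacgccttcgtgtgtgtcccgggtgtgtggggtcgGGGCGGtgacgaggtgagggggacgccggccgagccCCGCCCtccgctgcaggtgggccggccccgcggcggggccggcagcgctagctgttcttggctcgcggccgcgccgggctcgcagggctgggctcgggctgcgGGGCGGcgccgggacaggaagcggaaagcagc
ROR2: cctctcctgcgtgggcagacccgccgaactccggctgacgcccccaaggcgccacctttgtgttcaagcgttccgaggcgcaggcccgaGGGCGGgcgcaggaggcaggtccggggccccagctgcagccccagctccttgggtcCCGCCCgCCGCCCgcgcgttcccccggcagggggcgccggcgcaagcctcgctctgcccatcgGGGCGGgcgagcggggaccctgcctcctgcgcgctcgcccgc
The GC box was found 1 time in the CELSR2 window, 3 times in that of VANGL1 and 4 times in that of ROR2, and 42.6% of 35116 promoter windows of this length hold it at least 1 time. The TEAD motif was found only in this VANGL1 window among the windows of the 7 members, shown or not, and not in that of the other VANGL1 start site, against 11.9% of all windows. Neither TGANTCA (AP-1), held by 6.57% of all windows, nor ATCAAAG (TCF), held by 2.26%, was found in the windows of any of these 7 members. The motifs do not overlap one another in the windows shown. The windows of CELSR2, VANGL1 and ROR2 hold 23, 32 and 32 CpG dinucleotides, against a median of 11 over all windows. These matches describe the letters of the reference and say nothing about binding in these cells.

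SCRIB, a scaffold of the lateral membrane that also organises apical-basal polarity, was the highest member. SCRIB (ENSG00000180900, chr8:143790925-143815773) was listed at 32.2 and 33.1 FPKM in the controls and at 34.8 and 31.4 FPKM in KIF26B siRNA, from 3514 to 5064 reads. The libraries of KIF26B siRNA lay on either side of the controls. The log2 fold change was 0.02 with a 95% interval of −0.32 to 0.35 (adjusted p = 0.952). Changes within that interval were not detectable with these libraries. The microRNA gene MIR937 lies within SCRIB on the same strand. SCRIB works with LLGL and DLG proteins. Of 6 such genes tested, 1 was lower and 0 were higher at an unadjusted P below 0.05, beside 8.68% and 7.74% of all genes. LLGL1 was listed at 20.2 and 19.1 FPKM in the controls and at 12.8 and 13.1 FPKM in KIF26B siRNA (log2 fold change −0.56, standard error 0.11, adjusted p = 0.242). LLGL2, the highest of this group, was listed at 27.2 and 29.1 FPKM in the controls and at 25.3 and 33.9 FPKM in KIF26B siRNA (adjusted p = 0.897).

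Beyond the members, 75 further genes of the pathway were listed by role, of which 53 were tested, 22 lay below 1 FPKM and 7 of these were at 0 in every library. At an unadjusted P below 0.05, 7 of the 53 were lower and 2 were higher, or 13.2% and 3.77%, beside 8.68% and 7.74% of all genes. None of the 53 passed both thresholds on the log2(FPKM + 1) scale, which shrinks changes of low genes, and the smallest adjusted p was 0.242. The median log2 fold change of the 53 was −0.14. Both KIF26B siRNA libraries lay below both controls for 25 of the 53, a larger share than the 27.8% of all genes. They lay above both controls for 10 of the 53, a smaller share than the 24.9% of all genes. With 1 control left out, either replicate 1 or replicate 2, none passed the unadjusted P in either direction, where over all genes 1.67% were lower and 1.93% higher without replicate 1, and 1.61% and 1.82% without replicate 2. Without KIF26B siRNA replicate 1, 22 were lower and 11 higher, beside 23.7% and 22.9% of all genes in the same fit. Without KIF26B siRNA replicate 2, 17 were lower and 8 higher, beside 22.4% and 17.5% of all genes.

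Among 10 receptors and coreceptors tested, 3 were lower and 0 higher at an unadjusted P below 0.05, beside 8.68% and 7.74% of all genes. FZD1, another Frizzled receptor, was listed at 4.28 and 4.05 FPKM in the controls and at 2.41 and 1.34 FPKM in KIF26B siRNA (log2 fold change −0.87, standard error 0.22, adjusted p = 0.253). The ratio of its FPKM group means was 0.45, so on plain FPKM it lay beyond the fold threshold. GPC4, a glypican that presents Wnt ligands at the cell surface, was listed at 7.33 and 7.49 FPKM and at 3.74 and 5.33 FPKM (−0.62, adjusted p = 0.273). The third was FZD5, named after its values were seen (−0.49, adjusted p = 0.274). All 3, which were counted for their low P, were lower in both KIF26B siRNA libraries than in both controls, with adjusted p from 0.253 to 0.274. The same order held for 27.8% of all genes. In this group it also held for RYK, PTK7, FZD2, FZD3 and FZD4, but not for FZD7 and SDC4. SDC4, a syndecan and the highest of the group, was listed at 92.1 and 90.4 FPKM in the controls and at 82.0 and 134 FPKM in KIF26B siRNA (adjusted p = 0.736).

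Of 7 further core polarity genes tested, 0 were lower and 1 was higher at an unadjusted P below 0.05, beside 8.68% and 7.74% of all genes. The higher gene was INVS, a ciliary protein that modulates Dishevelled, named after its values were seen (log2 fold change 0.33, adjusted p = 0.289). DVL1, a Dishevelled adaptor and the highest of these core genes, was listed at 61.1 and 59.6 FPKM in the controls and at 49.9 and 66.4 FPKM in KIF26B siRNA, on either side of the controls. Of the Fat and Dachsous system, a parallel cadherin pathway of planar polarity, 2 genes were tested and neither passed. FAT1 was by far its highest gene, at 145 and 147 FPKM in the controls and 144 and 106 FPKM in KIF26B siRNA (adjusted p = 0.567). INTU was the 1 tested gene of the cilia effectors, at 2.74 and 2.66 FPKM against 3.47 and 4.64 FPKM (log2 fold change 0.44, adjusted p = 0.305).

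Of the listed genes that are given here without their role group, MAPK8 was lower and RAC1 was higher at an unadjusted P below 0.05. MAPK8, which encodes the kinase JNK1, was listed at 9.68 and 9.43 FPKM in the controls and at 6.21 and 5.66 FPKM in KIF26B siRNA (log2 fold change −0.61, standard error 0.12, adjusted p = 0.242). RAC1, a small GTPase of cell protrusion, was listed at 48.1 and 48.7 FPKM and at 75.7 and 79.1 FPKM (log2 fold change 0.67, standard error 0.11, adjusted p = 0.242). For both genes the KIF26B siRNA libraries lay close together and apart from the controls, which their choice by a low P favours. CDC42, named after its values were seen, was listed at only 0.312 to 0.692 FPKM. In the annotation used here, CDC42-IT1, listed at 0.293 to 1.15 FPKM, overlaps its exons on the same strand. Further same-strand genes that overlap them had no listed values.

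Of 9 ubiquitin ligases, kinases and modulators tested, 2 were lower and 0 higher at an unadjusted P below 0.05, beside 8.68% and 7.74% of all genes. SMURF2, a ubiquitin ligase that can act on PRICKLE1, was listed at 48.5 and 50.0 FPKM in the controls and at 36.1 and 39.1 FPKM in KIF26B siRNA (log2 fold change −0.38, adjusted p = 0.274). DACT1, a Dishevelled-binding modulator, was listed at 3.07 and 3.04 FPKM and at 2.14 and 1.31 FPKM (log2 fold change −0.59, adjusted p = 0.284). For both genes, counted for their low P, each KIF26B siRNA library was below each control, as for 27.8% of all genes. None of 5 genes of the calcium branch passed. CAMK2D, its highest gene, was listed at 12.3 and 12.5 FPKM in the controls and at 24.5 and 14.3 FPKM in KIF26B siRNA (adjusted p = 0.399). KIF26A, the paralogue of KIF26B, was listed at 5.69 and 6.31 FPKM in the controls and at 5.22 and 5.08 FPKM in KIF26B siRNA (log2 fold change −0.19, adjusted p = 0.481), far above KIF26B itself in every library.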

How the data were processed

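Total RNA of 4 HCT116 samples was sequenced as poly(A) RNA. The authors aligned the reads with HISAT2 2.0.5 and, per the labels' processing notes, counted them with featureCounts 1.5.0-p3 on hg38, whereas the Methods name hg19. The deposited values are FPKM per gene, a unit read from the values. Symbols came from GENCODE on GRCh37 (56513 of 58735 matched), and coordinates and promoters from RefSeq on GRCh38.p14. Whole reads were recovered for 34637 of 34638 genes above 0, by searching for a gene length that makes all 4 libraries whole within 0.003 reads. In a check, 648 of 648 genes above 0 in every library were whole as deposited and 4 after their values were moved by up to 1%. Among all 1000 genes of the check, 241 were still whole after the move, nearly all with a library at 0. Recovered reads are therefore less certain for such genes, WNT5A included. The recovered totals were 1.05 to 1.11 times the fragments used for scaling. Counting intervals are 95% Poisson intervals and cover counting error only.

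Genes that averaged 1 FPKM or more were tested with limma 3.58.1 (R 4.3.3) on log2(FPKM + 1) without covariates, with Benjamini-Hochberg adjustment over all 14523. This scale understates changes of low genes. Limma-voom on the recovered reads called 2599 genes at P below 0.05. The script was tested on simulated data with the same spread in every library. The KIF26B siRNA libraries differed more from each other than the controls did, so that test checks only the code. The text names the 10 members and KIF26B, further pathway genes with an unadjusted P below 0.05 that differed by over 0.5 on the log2 scale, the highest gene of each role (1 role group is not reported here), and the 3 genes nearest to the member that differed most. The members, lists and motifs were chosen with earlier results of these data known. Alternatives were filters, pseudocount, scaling, a variance trend, the replicate block and leaving out each library.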

Additional observations from a re-analysis of the deposited data

How the results depend on the processing

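Across alternatives, 86 of 90 results of single members stayed on their side of the unadjusted threshold of 0.05, and no result that passed it here or in the alternative changed sign. Of 24 results of the 6 members tested with 1 library left out, 6 changed sign without passing: FZD6 (0.21) and VANGL1 (0.11) without KIF26B siRNA replicate 2, and otherwise CELSR1 and SCRIB, which lay near 0. SCRIB also changed sign with scaling by total recovered reads (−0.02). Leaving out 1 library moved the count of members lower from 0 to 3, of members past both thresholds from 0 to 1, of further pathway genes lower from 0 to 22 and of those higher from 0 to 11. The extremes came without a control, where each count was 0, and without KIF26B siRNA replicate 1, where 3435 of all 14523 genes were lower and 3326 higher, against 234 to 243 lower without a control and 1261 in the reported fit. The median of the members ranged from −0.43 to 0.02 over the same fits. Where 1 library is left in a group, it is assumed to vary like the other group. Without a filter on low values, 13 further pathway genes were lower and 3 higher, among 68 tested, beside 2186 and 2192 of all 34638. With the replicate number as a replicate block, 1 further pathway gene was higher and 6 were lower, CELSR2 had an adjusted p of 0.398 from limma, and no call of a member changed. Whether same-numbered libraries belong together is not stated in the labels. Their deviations correlated at −0.003 across genes, but with 1 difference per group this cannot show whether they are paired. Over all genes, the calls past both thresholds ranged from 121 (at least 1 FPKM in every library) to 765 (limma-voom on genes with at least 10 reads in 2 libraries, added after seeing the data), against 206. The cause was not tested. Depth limits WNT5A, with at most 3 reads in a library, and leaves ROR1, VANGL2 and PRICKLE1 with 37 to 203 reads.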
